A study of Mus musculus with 4 samples.

Results

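The genes described here are 41 components of the endoplasmic reticulum (ER) protein folding and secretion machinery, taken by symbol from the 31053 genes of the UMI count tables, in which all 41 were found. They comprise 12 chaperones and co-chaperones, 4 protein disulfide isomerases, 10 genes of translocation and signal peptide cleavage, 7 genes of ER-associated degradation (ERAD), 6 sensors and transcription factors, and 2 genes of cargo export and glycan trimming. Proteins made for secretion enter the ER through the Sec61 channel while they are translated, lose their signal peptide, and are folded by chaperones and by enzymes that form disulfide bonds before they leave for the Golgi. Proteins that fail to fold are returned to the cytosol and degraded. When folding demand rises, the membrane sensors ATF6 and IRE1 (the product of *Ern1*) start the unfolded protein response, in which cleaved ATF6 and spliced *Xbp1* raise transcription of chaperone and ERAD genes. Luminal cells of the prostate secrete large amounts of a small number of proteins into the seminal fluid.

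Single cells were sequenced on a droplet platform (10x Genomics 3′ chemistry) from EPCAM+ prostate cells. The adult mice were of the P2-Runx1:RFP model on the ICR (CD-1) strain, in which RFP reports the activity of the proximal P2 promoter of *Runx1*. All adult mice carried the reporter and were over 8 weeks old. They were intact or had been castrated over 4 weeks before. The ventral (VP), dorsolateral (DLP) and anterior (AP) lobes of mice pooled within each of 3 independent runs were each sorted by RFP. Intact lobes were present in all 3 runs, castrated lobes were kept apart in run 2 only, and intact DLP RFP+ cells could be used from run 3 only. Urogenital sinuses of E15.5 embryos of the same strain were cultured with 10 μM dihydrotestosterone, and EPCAM+ cells of days 0, 1, 3 and 6 were combined in 1 library. In both data sets the sorted populations were told apart by lipid-tagged MULTI-seq barcodes. An RFP label therefore states the reporter level at sorting and does not name a cell type. Each value of an adult population is a sum of UMIs (unique molecules) over its cells in 1 run, so that p-values measure the spread between runs of pooled mice.

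After quality control and barcode assignment 824, 2194 and 1673 adult cells remained in runs 1, 2 and 3, and 5198 explant cells. By cluster markers 1989 adult cells were luminal-like and 2075 basal-like. An *Epcam* UMI was present in 97.5% to 100% of the cells of each luminal-like cluster, and in 9.76% to 33.8% of those of the hematopoietic-like clusters, whose median UMI counts relative to their libraries were lower (0.278 to 0.760 against 0.913 to 4.18). The member genes were kept out of the genes used for clustering. Other clusters held 355 hematopoietic-like, 101 fibroblast-like, 84 endothelial-like and 33 mesonephric-like cells, and 54 cells of unnamed clusters were left out. Pairs of libraries shared 0 to 2 cell barcodes. Luminal-like sums of intact lobes held 10 to 209 cells and 479383 to 8689128 UMIs. In these sums 8 hematopoietic markers together ranged from 0.289 to 296 CPM (UMIs of a gene per 1000000 UMIs of the sum), and 7 basal markers from 27.3 to 757 CPM in all populations but AP RFP+, where they had 3011, 1581 and 1222 CPM in runs 1, 2 and 3. Luminal-like cells of different populations lay in different clusters. Of the 452 intact AP RFP+ cells 384 lay in cluster 2, led by *Psca*, *Clu* and *Krt4*, whereas 235 of the 272 AP RFP- cells lay in cluster 3, led by *Tgm4* and *Pbsn*, and VP cells lay in clusters 4 and 6, led by *Spink1* and *Sbp*. Cluster 4 held 258 intact cells in run 2 and 26 in run 3, and cluster 6 52, 31 and 221 in runs 1, 2 and 3. In run 2 cluster 4 included 11 AP RFP+, 20 AP RFP- and 13 DLP RFP- cells. They gave 533986 of 1603215, 860784 of 3448557 and 590432 of 1420981 UMIs of their sums. Of their UMIs 52.8% to 60.8% came from the secreted prostate protein genes named below. Their part in the lobe and RFP comparisons was not tested.

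Promoters are shown first because cleaved ATF6 and spliced XBP1 act through short elements close to the transcription start. RefSeq promoters of the GRCm38.p6 build, 250 bases before to 50 bases after a start site, were matched by symbol for 30 of the 41 genes. The ER stress response element (ERSE) was searched on both strands as CCAAT, 9 unspecified bases and CCACG. It was found in 8 of the 30 genes (26.7%) and in 39 of all 32851 promoters of the same length (0.119%). The first share counts genes, some with several promoters, and the second counts single promoters. The shorter ERSE-II, ATTGG, 1 base and CCACG, was found in *Dnajb11* and *Herpud1* and in 12 of all promoters (0.0365%). The cores TGACGTGG (the UPRE, 222 of all promoters, 0.676%) and TGACGTCA (the CRE, 588 of all promoters, 1.79%) were found in 0 of the 30. None of the 30 genes held both ERSE and ERSE-II. Presence of a match is a description of these windows and not evidence of binding. Whole promoters of 3 genes follow, chosen because *Hspa5* encodes the main ER chaperone BiP, *Derl3* had the largest RFP difference of the AP and *Herpud1* holds the ERSE-II. Capitals mark the matched bases, and each sequence is written 5′ to 3′ in the sense of the gene. *Hspa5* (chr2:34771840-34772139, plus strand) has 1 ERSE that starts 65 bases before the start site, *Derl3* (chr10:75893148-75893447, plus strand) has 1 on the opposite strand, and *Herpud1* (chr8:94386179-94386478, plus strand) has 1 ERSE-II.
Hspa5 promoter: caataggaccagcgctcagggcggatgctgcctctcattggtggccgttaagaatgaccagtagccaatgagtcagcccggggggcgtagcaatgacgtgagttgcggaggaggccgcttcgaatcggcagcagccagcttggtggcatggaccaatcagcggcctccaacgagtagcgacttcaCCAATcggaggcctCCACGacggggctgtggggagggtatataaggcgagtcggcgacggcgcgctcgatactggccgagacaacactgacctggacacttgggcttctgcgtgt
Derl3 promoter: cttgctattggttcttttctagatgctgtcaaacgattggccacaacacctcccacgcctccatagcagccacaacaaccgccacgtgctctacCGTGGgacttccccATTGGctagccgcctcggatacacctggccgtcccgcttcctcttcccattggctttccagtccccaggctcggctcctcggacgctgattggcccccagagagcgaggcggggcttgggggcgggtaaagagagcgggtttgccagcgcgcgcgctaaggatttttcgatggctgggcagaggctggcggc
Herpud1 promoter: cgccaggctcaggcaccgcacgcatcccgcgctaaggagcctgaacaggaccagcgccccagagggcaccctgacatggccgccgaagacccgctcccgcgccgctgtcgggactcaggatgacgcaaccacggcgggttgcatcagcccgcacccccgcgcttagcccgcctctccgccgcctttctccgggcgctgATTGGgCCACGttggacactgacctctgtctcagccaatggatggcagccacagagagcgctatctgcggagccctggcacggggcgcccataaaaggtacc

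The matches of all 10 genes are given below, each written in the direction in which the element reads, with capitals for the fixed bases. *Hsp90b1* (the chaperone GRP94) is the only one of the 10 with a pair of matches. *Calr*, *Creld2*, *Derl3* and the second match of *Hsp90b1* read against the direction of the gene.
Calr ERSE (chr8:84847075-84847093): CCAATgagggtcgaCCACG
Canx ERSE (chr11:50325800-50325818): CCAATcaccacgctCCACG
Creld2 ERSE (chr15:88819520-88819538): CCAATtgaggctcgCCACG
Derl3 ERSE (chr10:75893242-75893260): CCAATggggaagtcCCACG
Dnajb11 ERSE-II (chr16:22857852-22857862): ATTGGcCCACG
Dnajc3 ERSE (chr14:118937827-118937845): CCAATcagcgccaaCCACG
Herpud1 ERSE-II (chr8:94386377-94386387): ATTGGgCCACG
Hsp90b1 first ERSE (chr10:86705638-86705656): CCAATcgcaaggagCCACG
Hsp90b1 second ERSE (chr10:86705533-86705551): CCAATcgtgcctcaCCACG
Hspa5 ERSE (chr2:34772025-34772043): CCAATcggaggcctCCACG
Pdia6 ERSE (chr12:17266491-17266509): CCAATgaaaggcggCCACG

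The 41 genes took up the largest share of UMIs in RFP- luminal-like cells of the AP and DLP. In AP RFP- luminal-like cells they held 3.84%, 2.56% and 2.72% of all UMIs in runs 1, 2 and 3, in DLP RFP- cells 3.32%, 1.85% and 2.46%, and in AP RFP+ cells 1.34%, 0.938% and 0.965%. The AP RFP+ and RFP- sums did not overlap. VP cells had 1.16% ± 0.0821 (SD, n = 3) when RFP- and 0.848% ± 0.0743 when RFP+, and the DLP RFP+ sum of run 3 had 0.900%. Of its 66 cells 40 lay in cluster 6, which otherwise held mostly VP cells, and 46.5% of its UMIs came from the secreted prostate protein genes named below. Basal-like cells ranged from 0.425% to 0.853% over all sums, a range that overlapped with VP RFP+ luminal-like cells and with no other luminal-like population. Other cell types also used these genes, with 0.684% to 0.903% of UMIs in hematopoietic-like and 0.608% to 0.945% in fibroblast-like cells.

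Shares of all UMIs depend on what else a cell makes. In VP luminal-like cells 8 genes of secreted prostate proteins (*Sbp*, *Sbpl*, *Spink1*, *Pbsn*, *Tgm4*, *Msmb*, *Defb50* and *Pate4*) held 51.2% to 56.3% of all UMIs and the 50 most abundant genes 65.6% to 69.1%, against 4.90% to 16.0% and 31.8% to 39.9% in AP RFP- cells. For this reason levels are also given as scaled CPM, where TMM (trimmed mean of M-values) factors of edgeR set the library sizes from the bulk of the genes. On this scale the 41 genes summed to 22730 ± 2939 in AP RFP-, 19890 ± 2485 in DLP RFP-, 17050 ± 1277 in VP RFP-, 12720 ± 643 in VP RFP+ and 7427 ± 524 in AP RFP+ cells (mean ± SD, n = 3). The DLP RFP+ sum was 11700. Per cell, the same genes gave 598 ± 187 UMIs in AP RFP-, 522 ± 111 in DLP RFP-, 498 ± 188 in VP RFP-, 426 ± 65.3 in VP RFP+ and 170 ± 57.5 in AP RFP+ cells. On both of these scales AP RFP+ cells were the lowest luminal-like population, with all 3 runs below every run of the other populations, and the 3 RFP- populations overlapped one another per cell.

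**Figure D1:**
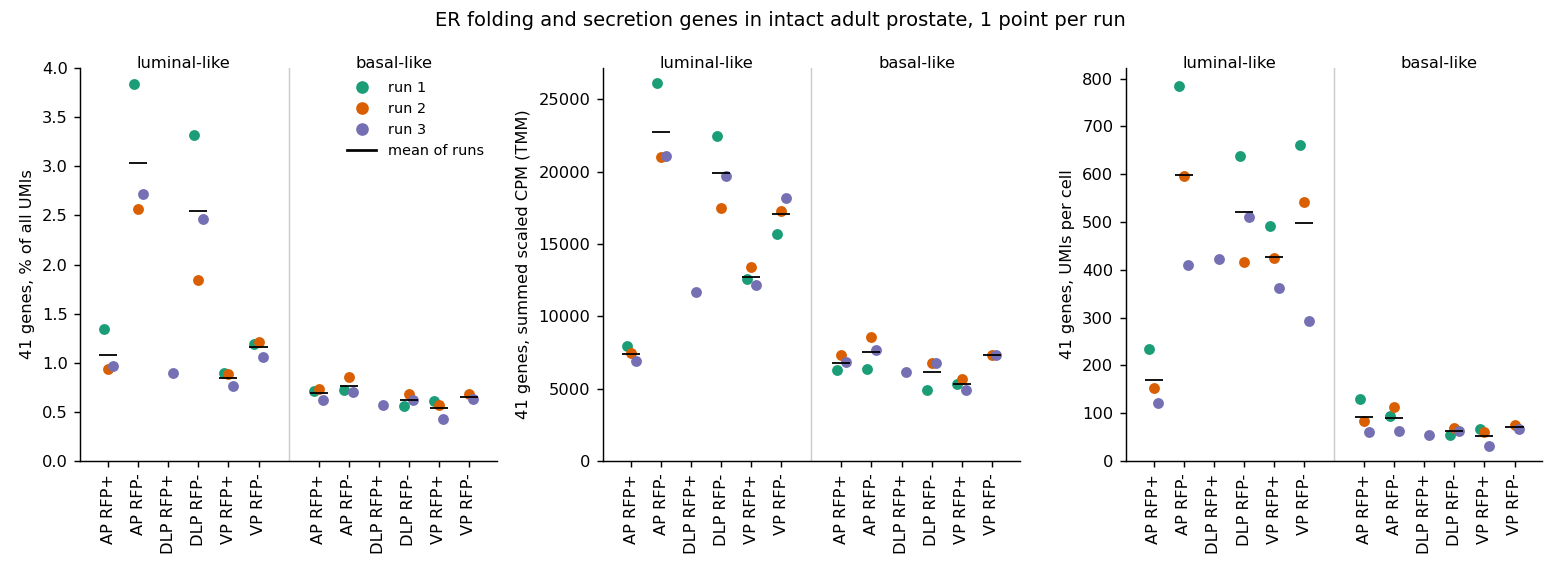
Summed level of the 41 genes in luminal-like and basal-like cells of intact mice by lobe and RFP, as percent of all UMIs (left), summed scaled CPM (middle) and UMIs per cell (right), with 1 point per run and a bar at the mean of the runs. AP RFP- luminal-like cells reach 2.56% to 3.84% of UMIs and AP RFP+ cells 0.938% to 1.34%, whereas VP cells are low as a share of UMIs but not per cell.

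By CPM, RFP- luminal-like cells of the AP and DLP were above basal-like cells of the same lobe and label for nearly every component. The other populations were so for fewer genes. This comparison is a description without a test, because compartments were defined by clusters of the same cells. Among AP RFP- cells 38 of the 41 genes had a higher CPM in luminal-like than in basal-like cells in every run and 0 a lower one, where 27.1% of all genes detected were higher and 37.2% lower, and the median ratio was 3.80. All luminal-like runs lay above all basal-like runs for 37 genes, where 18.9% of all genes did so, and the 4 others were *Ern2*, *Ssr1*, *Creb3l1* and *Creb3l4*. *Derl3*, an ERAD membrane protein, had 151 to 436 CPM in luminal-like and 1.22 to 15.1 in basal-like cells. *Dnajc10*, a disulfide reductase that works with BiP, had 977 to 1054 against 43.8 to 83.8 CPM. *Creld2*, a secreted ER stress protein, had 477 to 1918 against 46.3 to 88.6 CPM. At the other end, *Hspa5* had 3739 to 4251 against 1345 to 1988 CPM, a ratio of means of 2.34, and *Xbp1* 147 to 152 against 76.9 to 109, a ratio of 1.65. In DLP RFP- cells 37 genes were higher and 0 lower in every run (22.9% and 35% of all genes), with a median ratio of 4.76. In AP RFP+ cells 27 were higher and 1 lower (31.8% and 30.5%), with a median ratio of 1.79. In VP RFP- cells, with both types in 2 runs, 30 were higher and 7 lower (14.8% and 66.7%; median ratio 1.56), and in VP RFP+ cells 21 and 5 (10.3% and 60.8%; median ratio 1.41). In the single run of DLP RFP+ cells 28 were higher and 12 lower (22.9% and 76.3%). CPM is a share of all UMIs, of which the 8 secreted prostate protein genes held 51.2% to 56.3% in VP luminal-like cells. In UMIs per cell the 41 genes had means of 598 in luminal-like and 90.5 in basal-like AP RFP- cells. The same means were 522 and 62.55 in DLP RFP-, 170 and 91.55 in AP RFP+, 498 and 70.8 in VP RFP- and 426 and 53.2 in VP RFP+ cells. The part of total UMIs in these differences was not tested.

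The main RFP comparison asked how luminal-like cells with an active *Runx1* reporter differ from those without it in the same lobe. In the AP 37 of the 40 genes tested were lower in RFP+ cells and 0 were higher (edgeR quasi-likelihood test, adjusted p under 0.05, n = 3 runs each), while 10.8% of all 10353 genes tested were lower and 12.9% were higher. All 40 differences were negative, with a median log2 difference of -1.56 against 0.01 for all genes, and they ranged from -2.64 to -0.35. The 3 not called were *Ssr1* (-0.47, adjusted p = 0.0815), *Creb3l4* (-1.09, adjusted p = 0.178) and *Xbp1* (-0.35, adjusted p = 0.205). With the run as a block 39 were lower, *Ssr1* and *Xbp1* then having adjusted p-values of 0.0275 and 0.0494. Without run 2 the count was 20, without run 1 or run 3 33 and 32. Calls over all genes in either direction numbered 2452 in the main fit, 3455 with the block, and 1954, 748 and 1489 without runs 1, 2 and 3. AP RFP+ and RFP- cells lay mostly in clusters 2 and 3. The 8 hematopoietic markers summed to 51.6 to 79.9 CPM in RFP+ and 106 to 127 in RFP- cells, the 7 fibroblast markers to 50.5 to 222 and 35.3 to 102 CPM, and mitochondrial transcripts to 3.29% to 4.22% and 2.72% to 3.96%. The 7 basal markers summed to 1222 to 3011 CPM in RFP+ and 405 to 596 in RFP- cells, against 9699 to 14350 in intact basal-like sums of at least 10 cells. Of the 7 only *Krt15* was higher in RFP+ cells without overlap (1100 to 2660 against 209 to 490 CPM), while *Krt5* had 15.8 to 53.8 against 11.6 to 23.4 and *Trp63* 1.63 to 10.4 against 0.643 to 3.77, 3 markers named after their values were seen. Their part in the result was not tested.

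All 12 chaperones and co-chaperones were lower in AP RFP+ cells, with a median log2 difference of -1.78. *Hspa5*, whose product BiP binds unfolded chains and holds the stress sensors inactive, had 708, 943 and 916 scaled CPM in RFP+ cells of runs 1, 2 and 3 and 2895, 3066 and 3174 in RFP- cells. The groups were far apart, and the log2 difference was -1.83 ± 0.22 (SE, edgeR adjusted p = 4.91e-05), or 3.56-fold. *Creld2* had 245, 73.2 and 59.1 in RFP+ and 1306, 391 and 509 in RFP- cells, with run 1 high in both groups, and the difference of -2.54 had the largest SE of the set (0.72, adjusted p = 0.0170). *Dnajc10* had 140, 157 and 149 against 674, 801 and 817 scaled CPM (-2.36 ± 0.23, edgeR adjusted p = 1.26e-05). *Sdf2l1*, a partner of BiP in the ER lumen, had 129, 96.9 and 64.9 against 677, 431 and 353 (-2.33 ± 0.32, adjusted p = 1.12e-04). None of these 3 overlapped between RFP+ and RFP- cells. *Hyou1*, the nucleotide exchange factor of BiP, had 35.3, 32.1 and 28.0 against 160, 106 and 115 (-1.99 ± 0.24, edgeR adjusted p = 4.92e-05). *Manf*, an ER resident stress factor, had 286, 283 and 231 against 1208, 957 and 969 (-1.97 ± 0.20, adjusted p = 2.01e-05). *Canx*, the membrane-bound lectin chaperone calnexin, differed least among the 12, with 124 to 153 against 225 to 267 scaled CPM and a log2 difference of -0.80.

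The 4 protein disulfide isomerases were lower as well. *Pdia6* had 750, 557 and 551 scaled CPM in AP RFP+ and 3275, 2428 and 2156 in RFP- cells (-2.08 ± 0.28, edgeR adjusted p = 9.39e-05). *P4hb*, the founding enzyme of the family and a subunit of prolyl 4-hydroxylase, had 174, 195 and 172 against 342, 388 and 416 (-1.08 ± 0.18, edgeR adjusted p = 5.43e-04). Neither gene overlapped between the groups. *Pdia4* and *Pdia3* had log2 differences of -1.93 and -1.06.

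The ERAD genes held the largest single difference. *Derl3* had 52.4, 14.3 and 19.8 scaled CPM in RFP+ and 297, 124 and 140 in RFP- cells, high in run 1 in both groups but without overlap, and was 6.21-fold lower (-2.64 ± 0.52, edgeR adjusted p = 0.00178). *Herpud1*, a membrane protein that gathers ERAD complexes, had 152, 254 and 162 against 674, 773 and 979 (-2.10 ± 0.27, adjusted p = 6.75e-05). *Sel1l*, the scaffold of the HRD1 ligase, had 28.9, 30.7 and 39.2 against 111, 117 and 156 (-1.95 ± 0.29, edgeR adjusted p = 2.05e-04). All 7 genes were lower, with a median of -1.60, and the smallest difference was that of *Derl2* at -0.83. The paralogs thus covered a wide range, from -0.83 for *Derl2* and -0.85 for *Derl1* to that of *Derl3*.

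Genes of translocation and signal peptide cleavage had smaller differences, with 9 of 10 lower and a median of -0.97. *Sec61b*, a small subunit of the channel, had 444.2, 584 and 647 scaled CPM in RFP+ and 1080, 1394 and 1519 in RFP- cells (-1.25 ± 0.26, edgeR adjusted p = 0.00229). Of the translocon-associated (TRAP) subunits, *Ssr4* had 579 to 684 against 1828 to 1937 scaled CPM and a log2 difference of -1.56, whereas *Ssr1* had 44.7 to 54.9 against 61.9 to 78.3 and was the 1 gene of the group not called. *Tram1*, which helps chains into the membrane, had the smallest called difference at -0.57. Both genes of export and trimming were lower. *Man1a*, a mannosidase that trims N-glycans, had 83.7, 52.9 and 82.0 against 398, 386 and 413 (-2.45 ± 0.21, edgeR adjusted p = 9.35e-06), the lowest p of the set, and *Lman1*, the cargo receptor ERGIC-53, 77.3 to 102 against 146 to 200.

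Among the sensors and transcription factors 3 of 5 tested were lower, and the other 2 were not called. *Atf6* had 30.1, 23.7 and 26.8 scaled CPM in RFP+ and 104, 102 and 89.7 in RFP- cells (-1.86 ± 0.24, edgeR adjusted p = 6.98e-05). *Xbp1* had 82.1, 104 and 82.4 against 103, 125 and 114, so that the groups overlapped. These counts come from the end of the transcript and do not separate spliced from unspliced *Xbp1*. *Ern1* had 8.78 to 14.3 against 19.7 to 32.03 (-1.13), *Creb3l1*, an ER-bound factor of secretory cells, 1.14 to 2.47 against 2.14 to 6.13 (-1.73), and *Creb3l4*, its prostate-expressed paralog, 1.56 to 5.44 against 3.20 to 7.61 scaled CPM. The ranges of *Creb3l1* and of *Creb3l4* overlapped between the groups. *Ern2*, the epithelial paralog of *Ern1*, did not pass the low-count filter of the main test. Without this filter 41 genes were tested, with 34 lower and 1 higher, and 2541 of all genes were called in either direction. The higher gene was *Ern2*. It had 14 UMIs in AP RFP+ cells (1.98 CPM, 95% exact Poisson interval 1.08 to 3.31, counting error only) and 0 of 5730850 UMIs in AP RFP- cells, a count of 0 that allows up to 0.523 CPM. Ratios between genes are not given, since 3′ counts were not normalized per length.

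**Figure D2:**
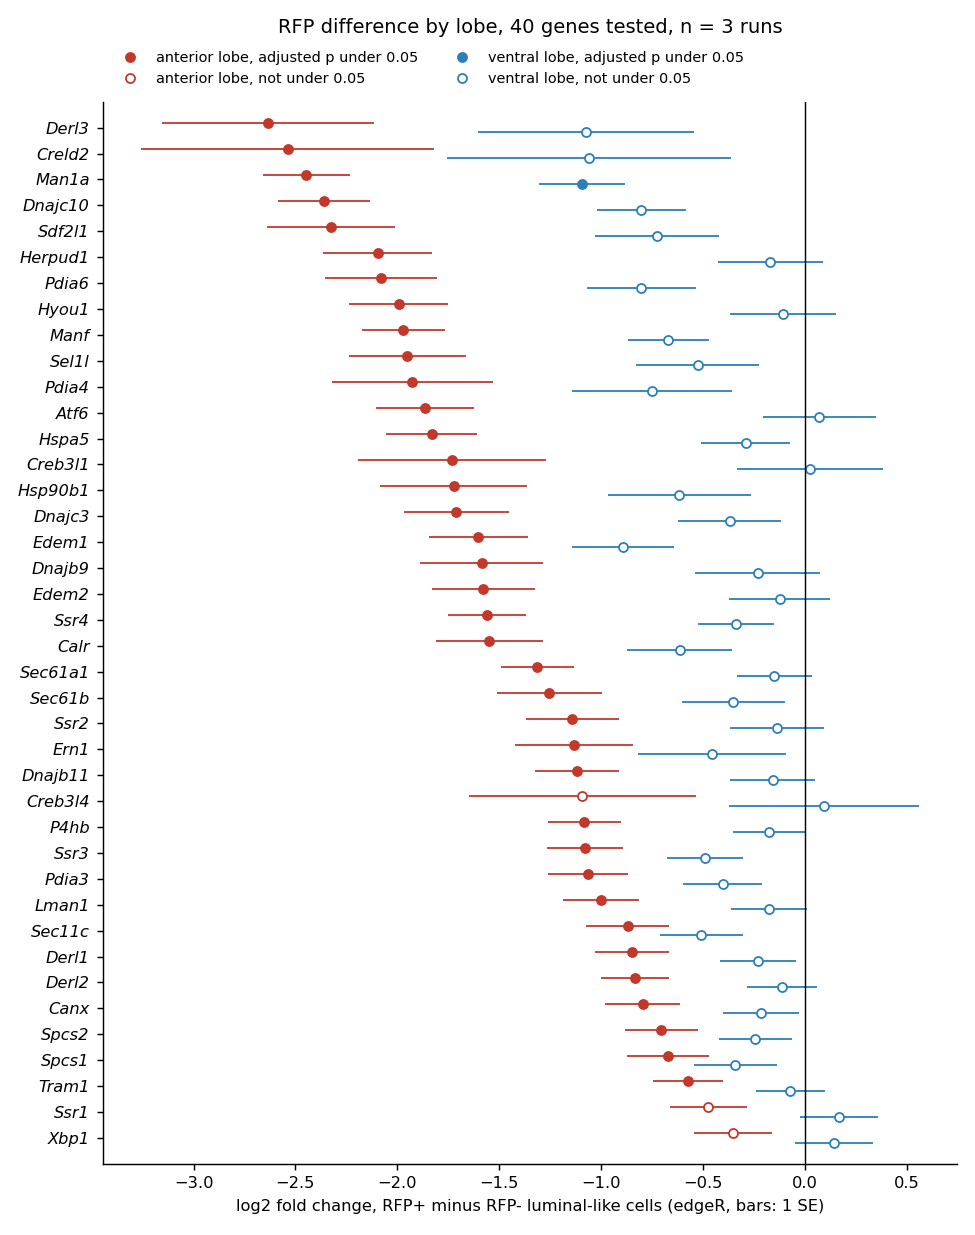
Log2 difference between RFP+ and RFP- luminal-like cells (edgeR, bars 1 SE, n = 3 runs) of 40 genes in the AP (red) and VP (blue), with filled points for adjusted p under 0.05. All AP points lie left of 0 and 37 are filled, whereas in the VP only *Man1a* is filled.

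Beyond the 41, a list of other ER and early secretory genes was examined, of which 91 were tested. In AP RFP+ cells 71 were lower and 0 higher, where 10.8% of all genes were lower and 12.9% higher. The median log2 difference was -0.90 against 0.01 for all genes. By group, 15 of 17 genes of N-glycosylation were lower, 21 of 26 of early traffic, 11 of 14 of translocation, 11 of 16 of folding, 6 of 10 of ERAD and 7 of 8 regulators of the unfolded protein response. *Fkbp11*, a prolyl isomerase of secretory cells, had the largest difference at -2.52, followed by *Syvn1*, the HRD1 ligase, at -2.38 and *Ddit3* (CHOP), the transcription factor of prolonged stress, at -2.11.

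Within cluster 3 the RFP difference was smaller than over all AP luminal-like cells, and within cluster 2 the few RFP- cells were lower than RFP+ cells. These values are a description, since clusters were formed on the same cells. AP cells of cluster 3 held 3.43%, 2.96% and 2.63% of UMIs in the 41 genes when RFP+ (28, 9 and 9 cells in runs 1, 2 and 3) and 4.30%, 3.16% and 2.83% when RFP- (68, 123 and 44 cells). AP RFP+ cells of cluster 2 held 0.781%, 0.592% and 0.666% in runs 1, 2 and 3. The 5 and 4 RFP- cells there in runs 1 and 2 held 0.698% and 0.551%, below the RFP+ cells of the same run. RFP+ and RFP- cells of the AP lay mostly in different clusters, and the parts of cluster and RFP label in the difference were not tested. In cluster 3 *Hspa5* had 3660, 4181 and 4043 CPM in RFP+ and 4750, 4646 and 4287 in RFP- cells, 18 of the 40 genes tested were higher in RFP- cells in all 3 runs, as were 12.5% of all genes, and the median ratio of RFP+ to RFP- was 0.806, 0.926 and 0.912 in runs 1, 2 and 3.

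Few of these differences passed in VP luminal-like cells. Only *Man1a* was lower in RFP+ cells, with 47.0, 58.2 and 49.9 scaled CPM against 94.98, 122.5 and 112 (-1.09 ± 0.21, edgeR adjusted p = 0.0355), and 0 of 40 were higher, where 0.328% of all genes were lower and 0.0193% higher. The median log2 difference of the 40 was -0.31, and 35 were negative. *Hspa5* had 1412, 1768 and 1523 in RFP+ and 1987, 2059 and 1706 in RFP- cells, overlapping ranges with a difference of -0.29 ± 0.22 (edgeR adjusted p = 0.941). The differences of *P4hb* (-0.18), *Sec61b* (-0.35), *Xbp1* (0.14) and *Creb3l4* (0.09) were within 2 SE of 0. With the run as a block 4 genes were lower, adding *Dnajc10*, *Manf* and *Sdf2l1* with adjusted p-values of 0.0375, 0.0246 and 0.0154. Without any 1 run the count was 0, and *Man1a* then kept a log2 difference of -1.12 to -1.06. Over all genes 36 were called in the main fit, 89 with the block, and 44, 0 and 1 without runs 1, 2 and 3. In the VP sum of run 1 only 10 RFP- cells were available.

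The difference between the lobes was tested directly. The RFP groups of the AP lay mostly in different clusters (384 of 452 RFP+ cells in cluster 2, 235 of 272 RFP- cells in cluster 3). Those of the VP lay mostly in the same clusters 4 and 6 (195 and 161 of 378 RFP+ cells, 45 and 67 of 117 RFP- cells). The part of this in the result was not tested. The RFP difference was less negative in the VP than in the AP for all 40 genes, by a median of 1.14 log2 units, and 12 of the 40 passed in this direction and 0 in the other (edgeR interaction, n = 3), where 1.87% and 2.31% of all genes did. The 10 largest were *Atf6* (1.94 ± 0.36, adjusted p = 0.00878), *Herpud1* (1.93 ± 0.37, adjusted p = 0.00886), *Hyou1* (1.89 ± 0.35, adjusted p = 0.00878), *Sdf2l1*, *Dnajc10*, *Hspa5*, *Edem2*, *Man1a*, *Dnajc3* and *Manf*. *Hspa5* differed by 1.54 ± 0.31 (edgeR adjusted p = 0.0116). *P4hb* (0.91, adjusted p = 0.0558), *Sec61b* (0.90, adjusted p = 0.183), *Xbp1* (0.49, adjusted p = 0.358) and *Creb3l4* (1.18, adjusted p = 0.429) were not called. This count depended on the runs: with the run as a block it was 27, *P4hb* and *Sec61b* then having adjusted p-values of 0.00440 and 0.00366, without run 1 it was 5, without run 2 it was 0 and without run 3 it was 1. The count over all genes also moved, from 433 in the main fit to 1101 with the block, and to 246, 5 and 55 without runs 1, 2 and 3.

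RFP- luminal-like cells of the VP and AP differed in both directions when scaled by TMM, with 2 genes higher in the VP and 10 lower, where 7.51% of all genes were higher and 7.7% lower. With total UMIs as library sizes, an alternative chosen after seeing the data, 0 were higher and 34 lower, where 2.55% of all genes were higher and 54.4% lower and the median of all genes was -1.02. *Atf6* had 21.4, 32.9 and 15.6 scaled CPM in VP and 104, 102 and 89.7 in AP cells, well apart (-1.97 ± 0.27, edgeR adjusted p = 1.72e-04). *Man1a* had 94.98 to 122.5 against 386 to 413 (-1.85 ± 0.21, edgeR adjusted p = 3.48e-05), and *Hyou1* 35.4 to 64.1 against 106 to 160 (-1.49 ± 0.26, adjusted p = 0.00109). *Sel1l*, *Pdia4*, *Dnajc10*, *Dnajb9*, *Pdia6* and *Sec61a1* followed with -1.45, -1.27, -1.25, -0.97, -0.90 and -0.87. Without run 1, which had 10 VP RFP- cells, *Pdia4* had -0.82 and *Pdia6* -0.46 and the latter was no longer called. *Hspa5* was lower at -0.67 ± 0.22 (edgeR adjusted p = 0.0490), with 1706 to 2059 against 2895 to 3174. The 2 genes higher in the VP belong to translocation and cleavage, and *Tram1* is named here after its value was seen. *Sec11c*, a catalytic subunit of the signal peptidase, had 1054, 1342 and 1385 scaled CPM in VP and 777, 640 and 512 in AP cells (0.97 ± 0.20, edgeR adjusted p = 0.00434), but with total UMIs as library sizes its difference was -0.015. *Tram1* had 195, 255 and 264 against 151, 144 and 130 (0.75 ± 0.17, edgeR adjusted p = 0.00719), and -0.22 with total UMIs. Neither gene thus kept a positive difference with total UMIs, where the median of all genes was -1.02. The 8 secreted prostate protein genes held 51.2% to 52.4% of UMIs in VP RFP- and 4.90% to 16.0% in AP RFP- cells, and their part in the result was not tested. *Xbp1* (0.37), *Creb3l4* (1.32), *P4hb* (-0.04) and *Sec61b* (-0.04) were not called. With the run as a block the count of called genes was 21, without run 2 it was 3 and without run 3 it was 6. Calls over all genes numbered 1575 in the main fit, 2263 with the block, and 1245, 487 and 698 without runs 1, 2 and 3.

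Between DLP and AP RFP- cells *Creb3l1* alone passed, with 22.5, 11.3 and 22.1 scaled CPM in DLP and 6.13, 4.99 and 2.14 in AP cells (1.90 ± 0.36, edgeR adjusted p = 0.0167), and the groups did not overlap. So 1 gene was higher and 0 lower, where 0.705% of all genes were higher and 0.541% lower. The median log2 difference was -0.09. *Hspa5*, *Xbp1*, *P4hb*, *Sec61b* and *Creb3l4* differed by -0.20 ± 0.22, 0.10 ± 0.19, 0.01 ± 0.18, -0.31 ± 0.25 and 0.23 ± 0.55. The call of *Creb3l1* was lost without any 1 run, when its difference was 1.53 to 2.24. With the run as a block *Ssr2* was also lower in the DLP (-0.51, edgeR adjusted p = 0.0494), a gene named after its value was seen. Over all genes 129 were called in the main fit, 370 with the block, and 99, 4 and 8 without runs 1, 2 and 3.

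RFP+ cells differed between the lobes in a direction that depended on the scale. With TMM 22 of 40 genes were higher in the VP than in the AP and 0 lower (median 0.80), where 12% of all genes were higher and 16.2% lower. With total UMIs as library sizes 2 were higher and 12 lower (median -0.32), where 2.08% of all genes were higher and 75% lower and all genes had a median of -1.21, so that on both scales the median of the 40 lay above that of all genes. *Creb3l1* and *Creb3l4* had the largest differences and kept their direction on both scales. *Creb3l1* had 11.8, 10.9 and 12.7 scaled CPM in VP RFP+ and 1.14, 2.47 and 1.17 in AP RFP+ cells (3.00 ± 0.40, edgeR adjusted p = 6.42e-05). *Creb3l4* had 21.5, 12.2 and 13.6 against 1.95, 5.44 and 1.56 (2.501 ± 0.49, edgeR adjusted p = 0.00119). Neither gene overlapped between the lobes. In AP RFP+ cells they had only 1.63 to 3.12 CPM (*Creb3l1*) and 2.175 to 6.86 CPM (*Creb3l4*). These values thus rest on few UMIs. *Herpud1* (1.68), *Sec11c* (1.33), *Tram1* (1.25), *Edem2* (1.23) and *Ssr4* (1.12) were higher with TMM and above 0 with total UMIs. *Dnajc3* (1.04), *Sdf2l1* (1.01), *Lman1* (0.97), *Hspa5* (0.87), *P4hb* (0.87), *Sec61b* (0.86) and *Xbp1* (0.86) were higher with TMM and had differences of -0.25 to -0.10 with total UMIs. The 8 secreted prostate protein genes held 54.3% to 56.3% of UMIs in VP RFP+ and 1.07% to 19.5% in AP RFP+ cells, and their part in the result was not tested. With the run as a block 27 were higher and 1, *Man1a* (-0.49, edgeR adjusted p = 0.0364), was lower, named after its value was seen. The count was 11 without run 2. Calls over all genes numbered 2926 in the main fit, 4074 with the block, and 2331, 1245 and 1611 without runs 1, 2 and 3.

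**Figure D3:**
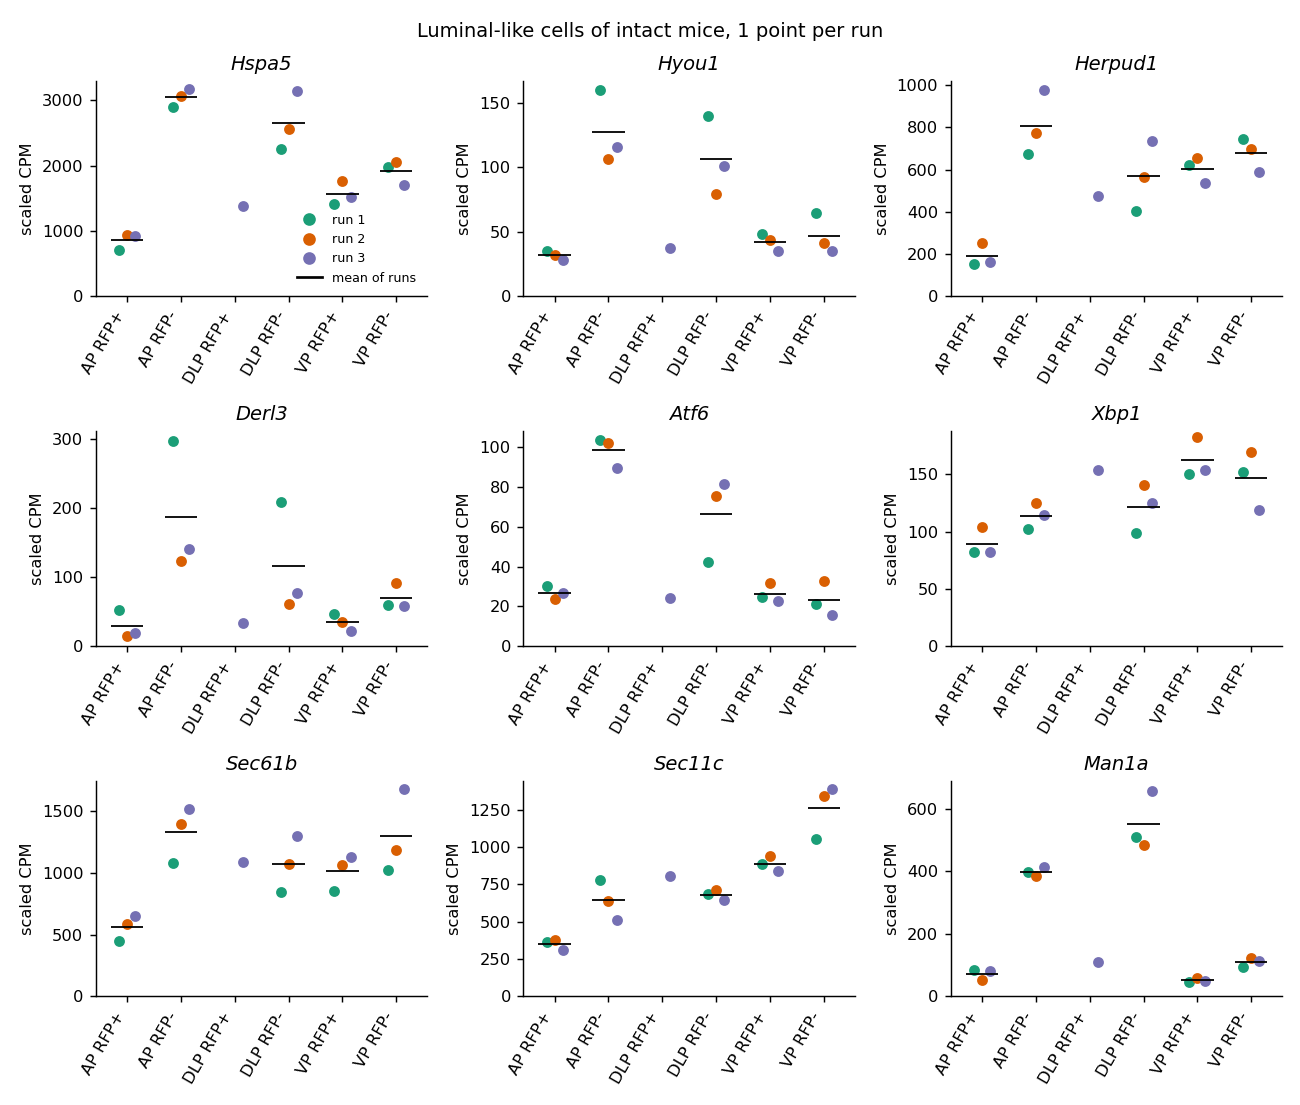
Scaled CPM of 9 genes in luminal-like cells of intact mice by lobe and RFP, 1 point per run with a bar at the mean of the runs and a single point for DLP RFP+ cells. *Hspa5* is lowest in AP RFP+ cells (708 to 943), *Atf6* is high in AP RFP- cells (89.7 to 104) and low in VP cells, and *Sec11c* is highest in VP RFP- cells (1054 to 1385).

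In basal-like cells the test called none of the genes in either comparison, though most differences were negative. Between AP RFP+ and RFP- cells 0 of 38 genes were higher or lower, and 0 of them had an unadjusted p under 0.05, where 0% of the 9035 genes tested were higher and 0% lower (edgeR, with 108 of all genes at an unadjusted p under 0.05). DESeq2 also called 0. Of the 38 genes 31 had a negative difference, with a median log2 difference of -0.19 against -0.003 for all genes. *Hspa5* differed by -0.03 ± 0.28, *Sec61b* by -0.16 ± 0.27, *P4hb* by -0.25 ± 0.26 and *Xbp1* by -0.06 ± 0.23. Between VP and AP RFP+ basal-like cells edgeR called 0 genes higher and 0 lower, where 0.376% of all genes were higher and 0.133% lower, and 5 of the 38 had an unadjusted p under 0.05. DESeq2 called 0 there. The median log2 difference of the 38 was -0.26 against -0.003 for all genes, and 31 were negative. *Hspa5* had a log2 difference of -0.72 ± 0.28 (edgeR adjusted p = 0.4995), *Xbp1* of -0.58 ± 0.26, *Sec61b* of -0.22 ± 0.27 and *P4hb* of -0.16 ± 0.28. With the run as a block 5 were lower in the VP, *Hspa5*, *Herpud1*, *Manf*, *Pdia6* and *Dnajb9*, with edgeR adjusted p-values of up to 0.0396. Over all genes 500 were then called in either direction, against 46 without the block. The 7 fibroblast markers, which include *Dcn* and *Vim*, summed to 2558 to 7527 CPM in basal-like sums, and *Dcn* was among the leading genes of the basal-like clusters.

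Castrated and intact lobes were compared within run 2, where each group is 1 sum, so that no test was possible and 95% intervals cover counting error only. A gene was counted as changed where its CPM differed at least 2-fold with at least 20 UMIs in 1 of the 2 sums. AP RFP- luminal-like cells had the most genes past this limit: of 40 genes 24 were lower and 0 higher after castration, where 15.9% of all genes were lower and 3.99% higher, and the median ratio was 0.403 against 0.837 for all genes. *Derl3* had 151 CPM (521 UMIs) in intact and 10.6 (10 UMIs) in castrated cells, a ratio of 0.0703 (0.0335 to 0.130). *Sel1l* had 143 and 20.2 CPM (ratio 0.141, 0.0844 to 0.223), and *Creld2* 477 and 77.5 (0.162, 0.127 to 0.205). *Pdia4*, *Sdf2l1*, *Man1a*, *Pdia6*, *Hyou1*, *Hsp90b1* and *Manf* had ratios of 0.172, 0.196, 0.216, 0.225, 0.262, 0.278 and 0.282. *Hspa5* had 3739 and 1609 CPM, a ratio of 0.430 (0.408 to 0.454), and *Sec61b* 1700 and 710 (0.418, 0.385 to 0.453). *P4hb* (0.541), *Xbp1* (0.745) and *Creb3l4* (1.26, 0.572 to 2.56) did not reach 2-fold. This comparison and that of RFP+ with RFP- cells share the intact AP RFP- cells of run 2.

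DLP RFP- luminal-like cells had differences of the same direction, with 19 of 38 genes lower and 0 higher, where 17.1% of all genes were lower and 1.29% higher, and a median ratio of 0.508 against 0.790. Here the castrated sum held only 20 cells. *Man1a* had 509 CPM in intact and 91.6 in castrated cells (ratio 0.1798, 0.129 to 0.245), *Hspa5* 2700 and 1142 (0.423, 0.386 to 0.463) and *P4hb* 450 and 268 (0.597). *Hyou1*, *Dnajc10*, *Creld2*, *Edem1*, *Sdf2l1*, *Hsp90b1*, *Sel1l*, *Pdia4* and *Pdia6* had ratios of 0.229 to 0.344. *Sec61b* (0.650), *Xbp1* (0.732) and *Creb3l4* (0.865) stayed within 2-fold.

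Fewer genes passed the same limit in RFP+ luminal-like cells. In the AP 3 of 39 genes were lower and 1 higher, where 5.86% of all genes were lower and 10.5% higher, with a median ratio of 0.839 against 1.12. *Derl3* (0.351), *Edem2* (0.386) and *Sdf2l1* (0.493) were lower, and *Dnajc10* had 198 CPM in intact and 407 in castrated cells (2.05, 1.81 to 2.32). *Hspa5* had 1189 CPM in intact and 1604 in castrated cells (1.35, 1.28 to 1.42). *P4hb*, *Sec61b*, *Xbp1* and *Creb3l4* had ratios of 0.982, 0.836, 1.08 and 0.926. In the VP 2 of 40 genes were lower and 2 higher, where 2.64% of all genes were lower and 42.7% higher. *Creld2* (0.482) and *Derl3* (0.485) were lower and *Ern1* (3.17, 2.00 to 4.98) and *Creb3l1* (2.55, 1.70 to 3.80) higher. *Hspa5* had 1172 and 996 CPM (0.850), *Creb3l4* 8.06 and 13.6 (1.68, 1.08 to 2.58), *Xbp1* a ratio of 1.13, *P4hb* 1.064 and *Sec61b* 1.21. The median ratio of the 40 was 1.07 against 1.86 for all genes, and with CPM over all but the 50 most abundant genes it was 0.542 against 0.938, with 17 lower and 0 higher. The 8 secreted prostate protein genes held 56.3% of UMIs in intact and 11.8% in castrated VP RFP+ cells, and their part in the result was not tested.

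Most RFP+ and part of the RFP- luminal-like cells of castrated lobes lay in clusters that held few intact cells. After castration 155 of 186 AP RFP+ and 30 of 48 AP RFP- cells lay in cluster 5, led by *Clu* and *Basp1*, and 105 of 125 VP RFP+ cells in cluster 8, led by *Ang4* and *Ang5*. Cluster 5 held 0.846% of UMIs in the 41 genes in AP RFP+, 0.857% in AP RFP-, 0.962% in DLP RFP- and 0.815% in DLP RFP+ cells, and cluster 8 0.837% in VP RFP+ cells. These 5 sums thus spanned 0.815% to 0.962%, whereas intact AP RFP- cells of cluster 3 in run 2 held 3.16% and AP RFP+ cells of cluster 2 0.592%. Within cluster 2 the 14 castrated AP RFP+ cells held 0.441% and the 10 castrated VP RFP+ cells 0.685%. Of the castrated AP RFP- cells 15 lay in cluster 4, where 47.5% of UMIs came from the secreted prostate protein genes. Without cluster 4, a choice made after seeing the data, 31 of 39 genes were lower in AP RFP- cells, 20 of 38 in DLP RFP- cells, and 5 lower and 1 higher of 38 in AP RFP+ cells. The median ratios of these genes were 0.320, 0.495 and 0.812, against 0.923, 0.924 and 1.03 for all genes. The 8 hematopoietic markers summed to 48.8 CPM in castrated and 120 in intact AP RFP- cells, to 17.04 and 136 in DLP RFP- cells, to 57.5 and 58.6 in AP RFP+ cells and to 113 and 11.2 in VP RFP+ cells, and their part in the results was not tested. Median UMIs per cell were 22650 in intact and 12260 in castrated AP RFP- cells, and 46310 and 13040 in VP RFP+ cells.

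Basal-like cells of castrated lobes had 7 of 37 genes lower and 0 higher in AP RFP+, where 10.3% of all genes were lower and 1.99% higher, and 3 of 32 lower and 1 higher in VP RFP+ cells, where 16.2% were lower and 2.49% higher. In the AP *Creld2* (0.292), *Edem1* (0.325), *Manf* (0.336), *Dnajc3* (0.436), *Pdia6* (0.482), *Sdf2l1* (0.488) and *Hsp90b1* (0.5) were lower. *Hspa5* had ratios of 0.699 (0.659 to 0.742) in the AP and 1.63 (1.49 to 1.79) in the VP, opposite sides of 1. In the VP *Derl2* (0.177), *Sdf2l1* (0.363) and *Pdia3* (0.486) were lower, and *Dnajb9*, a J protein that recruits BiP, had 98.3 CPM in intact and 246 in castrated cells (2.498, 1.85 to 3.38). *P4hb*, *Sec61b* and *Xbp1* had ratios of 0.930, 0.574 and 0.515 in the AP and 1.12, 0.623 and 0.930 in the VP. Intact basal-like cells had more UMIs, with medians of 8689 against 5459 in the AP and 8059 against 3633 in the VP.

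**Figure D4:**
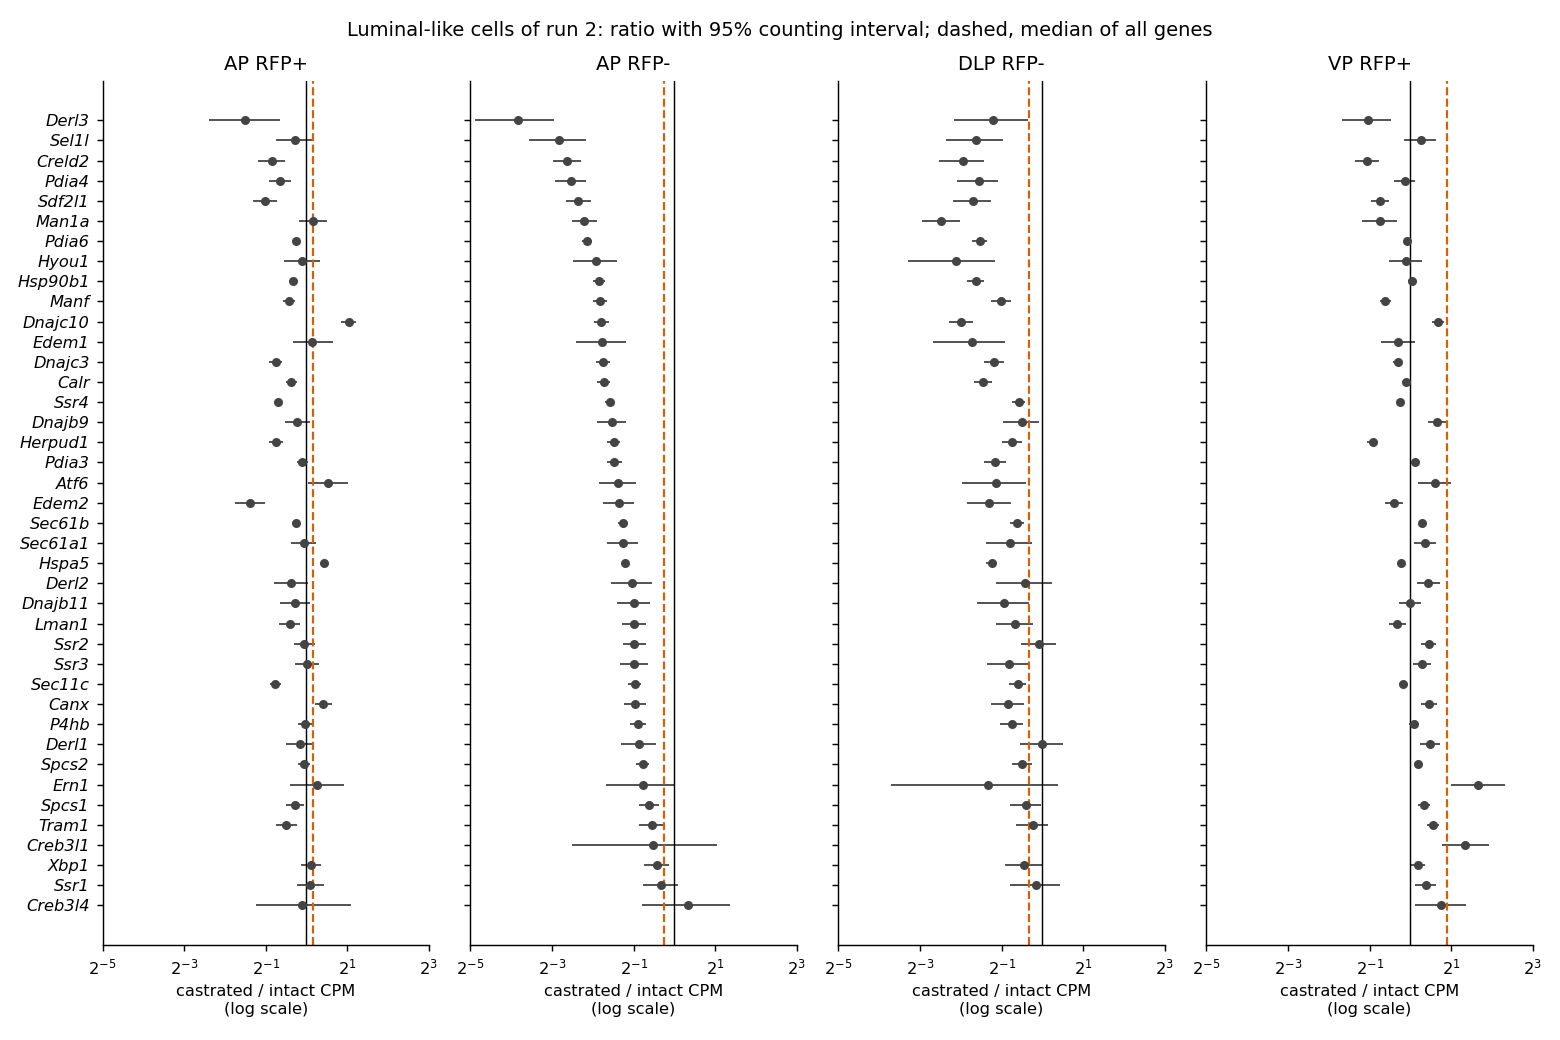
Ratio of castrated to intact CPM (log axis) in luminal-like cells of run 2 for genes with at least 20 UMIs in 1 of the 2 sums, with 95% counting intervals, a solid line at 1 and a dashed line at the median of all genes. Points of AP RFP- cells lie left of 1 for all genes but *Creb3l4*, down to 0.0703 for *Derl3*, whereas RFP+ points span 0.351 to 2.05 in the AP and 0.482 to 3.17 in the VP.

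In the explants prostatic epithelium-like cells (464, 451, 941 and 1973 cells on days 0, 1, 3 and 6) held 0.467%, 0.602%, 0.576% and 0.535% of UMIs in the 41 genes. With 1 library and 1 sum per day no test was possible. From day 0 to day 1 the ratio was above 1 for 35 of 40 genes, with a median of 1.25 over the 40 against 0.969 for all genes, but only *Creb3l1* reached 2-fold (11 and 20 UMIs, ratio 2.02, 0.923 to 4.67) and 0 were 2-fold lower, where 3.55% of all genes were higher and 3.02% lower. *Hspa5* had 523, 741, 645 and 560 CPM on days 0, 1, 3 and 6, and *Manf* 145, 229, 203 and 174. *Pdia6* had 259, 415, 486 and 380 CPM and *Sec11c* 32.7, 53.7, 77.2 and 63.2, both highest on day 3. *Xbp1* (40.6, 53.4, 45.7 and 42.9) and *P4hb* (122.2, 159, 132 and 130) were highest on day 1, as were 24 of the 40 genes with at least 20 UMIs on a day, and 23 were lowest on day 0, where 21.3% of all genes were highest on day 1 and 25.2% lowest on day 0. *Sec61b* had 382, 402, 299 and 367 CPM, and *Creb3l4* 4.14, 5.64, 4.401 and 3.68. *Ern2* had 1 UMI in all.

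Later steps were small. From day 1 to day 3 *Derl3* (20 and 9 UMIs, ratio 0.281, 0.113 to 0.645) and *Creb3l1* (20 and 15 UMIs, 0.468, 0.223 to 0.962) were lower and 0 higher, where 4.38% of all genes were lower and 2.63% higher. From day 3 to day 6 0 were higher and 0 lower, where 2.37% and 2.2% of all genes were. Over the whole culture, day 6 against day 0, *Derl3* alone was lower (19 and 21 UMIs, 0.442, 0.226 to 0.869) and 0 were higher, where 9.95% of all genes were lower and 8.04% higher. The median UMI count per cell was 17150, 17560, 16540 and 13430 on the 4 days. Adult luminal-like AP RFP- cells, in other libraries, had 151 to 436 CPM of *Derl3*, and explant cells 0.528 to 1.88.

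Of the named explant clusters, another had the highest level of these genes. It was led by *Ero1l*, *Ndrg1* and *Slc2a1* and named for hypoxia or stress by its markers, and 127 of its 136 cells were of day 1. It held 1.10% of UMIs in the 41 genes and 2062 CPM of *Hspa5* (3571 UMIs), against 0.602% and 741 in prostatic epithelium-like cells of that day, and 262 against 64.1 CPM of *Herpud1*. Mesonephric-like cells had 0.495%, 0.615%, 0.654% and 0.669% on days 0, 1, 3 and 6, mesenchyme-like cells 0.713% to 0.855% and urothelium-like cells 0.452% to 0.568%. Cells of unnamed clusters (8, 35, 104 and 81 on days 0, 1, 3 and 6) were left out.

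**Figure D5:**
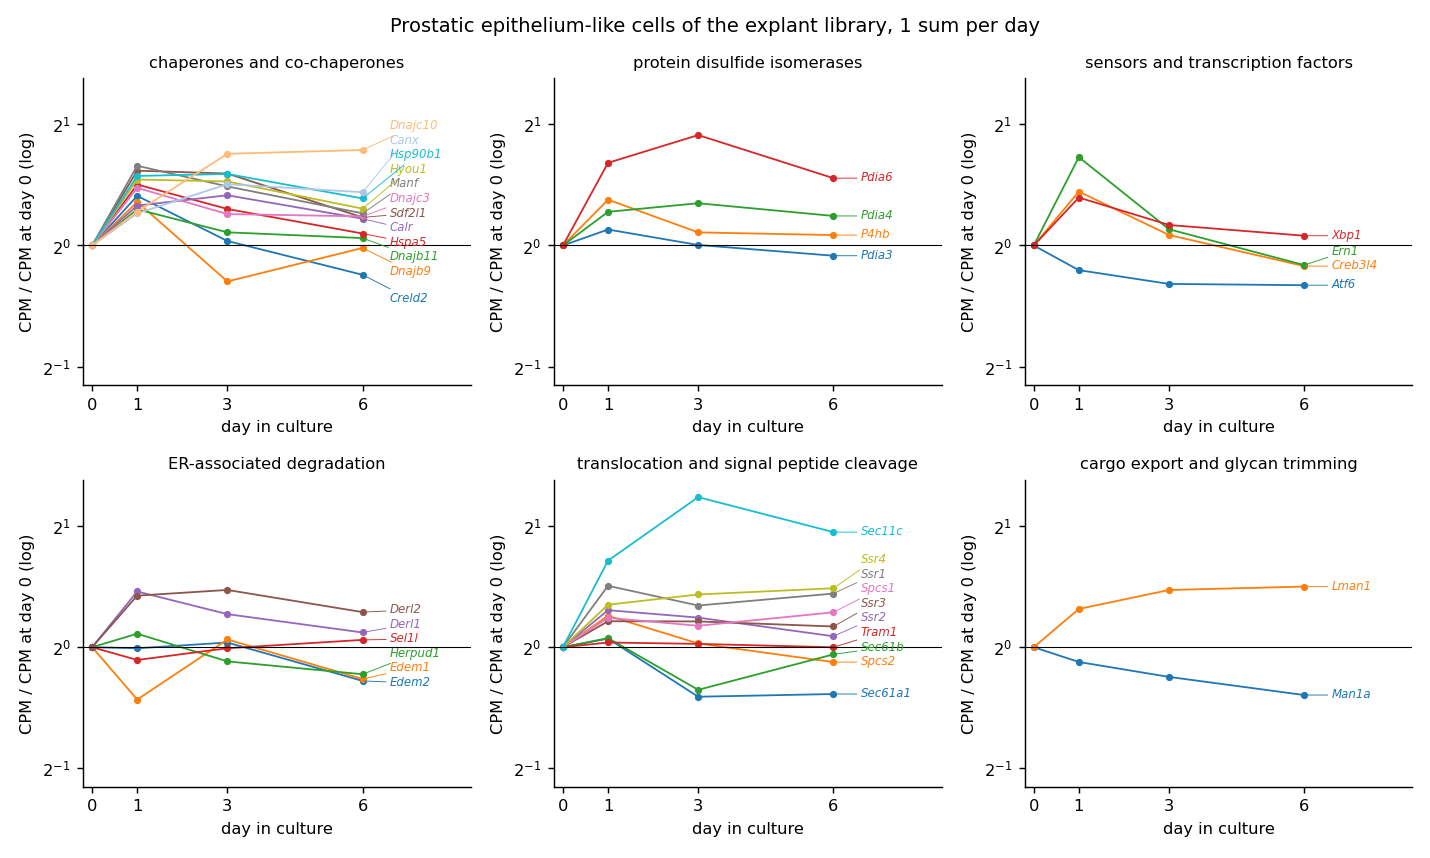
CPM of each gene in explant prostatic epithelium-like cells relative to day 0 (log axis) against day in culture, 1 line per gene in 6 panels by role, for genes with at least 20 UMIs on day 0. Most lines lie above 1 on day 1, *Hspa5* from 523 to 741 CPM, and *Sec11c* reaches its highest level on day 3.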

How the data were processed

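Single-cell libraries were made with the 10x Genomics 3′ v3 kit from EPCAM+ cells of 3 adult runs and 1 explant culture. The deposited values are UMI counts per gene and cell, not normalized, and the authors also deposited counts of MULTI-seq sample barcodes. The submitters' processing notes name Cell Ranger 3.1.0, Seurat 3.1.5 and the mm10 (GRCm38) build. The tables held 2612, 6034 and 3028 cells in runs 1, 2 and 3 and 7474 explant cells, with 35051876, 86381807, 40087244 and 121090404 UMIs. Median UMIs per assigned cell were 13055, 10618.5, 9750 and 14784.5. The member genes and gene lists were chosen with earlier results of these data known.

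Adult cells with over 750 and under 7500 genes and under 10% mitochondrial UMIs were kept, and explant cells with over 1000 genes and under 7.5%. Cells were assigned to 1 barcode, cells with several barcodes were removed, and no other doublet caller was run. The intact DLP RFP+ barcode gave no usable threshold in runs 1 and 2, so that doublets with such cells can pass there as single cells. For run 3 the deposited sample sheet repeats the short sequences of the AP barcodes for the VP, while the full oligos differ, and cells were assigned by barcode name. In run 3 the secreted prostate protein genes held 52.0% of UMIs in the VP RFP- sum, against 51.2% and 52.4% in runs 1 and 2. In the VP RFP+ sum they held 54.3%, against 55.9% and 56.3%. Clusters (Leiden, resolution 0.4 for all adult cells, 0.3 for epithelial cells and 0.3 for explants, 20 neighbours, 50 principal components, 3000 variable genes without the members and the other ER genes) were named by markers. UMIs were summed per run, population and cell type where at least 10 cells were present. Sums of intact lobes were compared with edgeR's quasi-likelihood test with TMM factors and Benjamini-Hochberg adjustment over all genes tested, and DESeq2 was an alternative. Standard errors (SE) are those of the log2 difference. Replicates are runs on pooled mice. Sums of 1 run carry the same number in all populations, since lobes and RFP fractions came from the same mice and 1 library, and deviations of same-run sums from their group means correlated at r of 0.052 to 0.441 over 12 pairs. Castrated and explant sums had no replicates and were given as ratios with exact 95% counting intervals.

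In each comparison the members past the call rule are named, at most the 10 with the largest log2 difference where more passed, together with *Hspa5*, *Xbp1*, *Creb3l4*, *Ern2*, *P4hb* and *Sec61b*. Alternatives were other library sizes, count filters, cell filters, barcode thresholds, clusterings, the run as a block and leaving out each run. A count of 0 was given the upper limit of 3 UMIs. There were 0 other columns of per-sample values. Gene positions were read from GENCODE M21. Scripts used R 4.3.3, edgeR 4.0.16, DESeq2 1.42.0, Python 3.11.15, numpy 2.4.6, pandas 2.3.3, scipy 1.17.1, scikit-learn 1.9.0 and leidenalg 0.10.2, and were tested on simulated data.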

Additional observations from a re-analysis of the deposited data

Results flagged for a closer look

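The RFP difference of luminal-like cells differed between the VP and the AP for 12 of the 40 genes tested, by the edgeR interaction test with 3 runs a group. Of all genes 1.87% passed in the same direction and 2.31% in the other. Without 1 run the count was 0 to 5, and that of all genes 5 to 246, against 433 with all runs. For each of the 12 genes the log2 difference between RFP+ and RFP- cells was less negative in the VP. The difference of the differences was 1.94 for *Atf6*, 1.93 for *Herpud1*, 1.89 for *Hyou1*, 1.60 for *Sdf2l1*, 1.56 for *Dnajc10* and 1.54 for *Hspa5*. It was 1.46 for *Edem2*, 1.35 for *Man1a*, 1.34 for *Dnajc3*, 1.30 for *Manf*, 1.23 for *Ssr4* and 1.16 for *Sec61a1*. The adjusted p-values of these 12 ran from 0.00878 to 0.0479. The 8 secreted prostate protein genes held 51.2% to 56.3% of UMIs in all VP sums and 1.07% to 19.5% in AP sums, and their part in the result was not tested. AP RFP+ cells lay mostly in cluster 2 and AP RFP- cells in cluster 3, while VP cells of both labels lay mostly in clusters 4 and 6. The part of these clusters was not tested either.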

How the results depend on the processing

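Under the alternatives, 189 summary values stayed within their limits, 47 moved and 4 changed sign, and of the values of single genes 565 kept direction and call, 116 kept direction and lost the call and 9 changed sign. Unless given below, the cause was not tested. Counts over all genes with the block or without 1 run stand beside the results above. For AP RFP+ against RFP- cells, 37 genes were called, 14 with fewer than 7500 UMIs per cell (fewer cells) and 20 to 33 without 1 run. Without the low-count filter 34 were lower and 1, *Ern2*, was higher. For VP RFP+ against RFP- cells, 1 gene was called, 3 with DESeq2, 4 with the run as a replicate block, 4 without the 5% of cells with most UMIs, 2 with at least 20 cells per sum, 2 with keratin UMIs in place of clusters, and 0 without the 50 most abundant genes in the library size, with total UMIs as library size, with the HTODemux threshold alone or without any 1 run (0 to 0). For RFP- VP against AP cells, 12 were called, 34 with total UMIs, 21 with the block and 3 to 13 without 1 run, and *Sec11c* had -0.015 and *Tram1* -0.22 with total UMIs. For RFP- DLP against AP cells, 1 was called, 2 with DESeq2, 2 with the block, 0 with fewer than 7500 UMIs and 0 to 0 without 1 run. For RFP+ VP against AP cells, 22 were called, 14 with total UMIs and 11 to 24 without 1 run. With total UMIs *Dnajc3* had -0.10, *Sdf2l1* -0.13, *Lman1* -0.14, *Hspa5* -0.23, *Xbp1* -0.25, *P4hb* -0.25 and *Sec61b* -0.24. For the lobe difference of the RFP difference, 12 were called, 3 with total UMIs, 27 with the block, 2 without the 5% of cells with most UMIs and 0 to 5 without 1 run. The counts over all genes were 433, 225, 1101, 143 and 5 to 246 in the same order. For basal-like RFP+ VP against AP cells, 0 were called and 5 with the block, where 46 and 500 of all genes were. The replicate block changed no call of another gene named in a comparison beyond those given beside the results. After castration, luminal-like AP RFP+ cells had 4 genes past 2-fold and a median log2 ratio of -0.25, with 2 and 0.18 at fewer than 7500 UMIs and 1 and 0.006 by the mean of single-cell CPM. Luminal-like VP RFP+ cells had 4 and 0.10, with 17 and -0.88 without the 50 most abundant genes and a median of -0.046 without the 5% of cells with most UMIs. Basal-like AP RFP+ cells had 7, with 11 at Leiden resolution 1.0, 12 with the HTODemux threshold, 13 by keratin UMIs and 12 by single-cell means, and VP RFP+ cells 4 and 7 by single-cell means. In explants, day 1 over day 0 had 1, with 0 without the 5% of cells with most UMIs, 0 at Leiden resolution 1.0 and 2 over all cells of a day, day 3 over day 1 had 2, with 0 and 1 under the first 2 of these, and day 6 over day 0 had 1, with 2 without the 50 most abundant genes and 2 over all cells. Total UMIs as library size and leaving out cluster 4 were chosen after seeing the data. Fewer than 7500 UMIs per cell gave no value for VP luminal-like comparisons, the lobe difference, explants and castrated luminal-like RFP- or VP cells. Depth limited *Ern2* and *Derl3* in explants, and 10 VP RFP- cells in run 1 limited the VP.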
